A study of Mus musculus with 24 samples.

Results

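The retina of NOD/ShiLtJ mice (below NOD), an albino inbred strain, was compared with the retinas of 4 other classical inbred strains. The series holds RNA sequencing libraries of 24 retinas from 8 strains at postnatal day 28, with 3 mice per strain. The 3 NOD libraries were taken by their strain label, and the libraries they were set against are the 12 labelled 129S1/Svlmj (below 129S1), C57BL/6J, A/J and NZO/HlLtJ (below NZO), again 3 of each. No treatment or engineered allele is labelled in any of these groups, each library comes from a separate mouse, and the sex of the mice is not labelled. The 9 libraries of WSB/EiJ, PWK/PhJ and CAST/EiJ, the wild-derived strains, entered no test and were used for description. The comparison asks which genes have an RNA level in the NOD retina outside that of the other classical strains.

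NOD is best known as a model of autoimmune diabetes, and like A/J it is albino, so that its eye lacks melanin. The retina turns light into nerve signals in rods and cones, which pass them through bipolar and amacrine cells to ganglion cells, and Müller glia span all of its layers. When cells lack amino acids, or misfolded protein accumulates, translation slows and the transcription factor Atf4 switches on genes for amino acid supply and for charging transfer RNA, a program called the integrated stress response.

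The values are cpm, the reads of a gene scaled to the same total of reads in each library. The NOD libraries held 76172000, 74452000 and 71688000 reads, as rounded totals, and the 15 libraries ranged from 59421000 to 78150000. At these depths 3 reads correspond to 0.0384 to 0.0505 cpm, a floor that covers counting error only, since the reads carry no molecular identifiers. Markers of lens were high in NOD replicate 2, in 129S1 replicate 2 and in C57BL/6J replicate 2. The 24 lens genes summed to 2683, 2238 and 309.9 cpm in these libraries and to 13.0 to 81.4 cpm in the other 12, with Cryaa the most abundant. Results are therefore also given without these 3 libraries where that changes them. Xist, the RNA of the inactive X chromosome, was at 962 cpm in 129S1 replicate 3 and 906 cpm in C57BL/6J replicate 3. In NOD it was at 3.12, 0.416 and 0.223 cpm, with the Y-linked gene Ddx3y at 32.4, 30.2 and 30.7 cpm. Chromosomes X and Y were left out of the tests.

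NOD retinas had higher RNA of Atf3, Atf4, Ddit3, Trib3 and Mthfd2, genes of the integrated stress response, than each of the 4 other strains. Genes of phototransduction went both ways, with 7 of 29 higher and 8 lower than the mean of the 4 strains, and among them the rod gene Pde6a and the cone genes Pde6c and Gngt2 were lower than in each strain while Sag, the rod arrestin, was higher than the mean. Crym, a thyroid hormone binding protein, was much lower. Of the 15811 genes whose mean over the 15 libraries reached 0.5 cpm, 2016 (12.8%) were higher in NOD than the mean of the 4 strains and 1427 (9.03%) were lower, at an adjusted p under 0.05. The fit was made with limma on log2(cpm + 1), a scale that understates differences of genes with low values. The median difference of all genes tested was 0.024 on that scale. Without NOD replicate 1 the higher count was 1240, and without NOD replicate 3 it was 1292. Without the 3 libraries with lens RNA 2730 were higher and 1285 lower.

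Taken strain by strain, NOD differed from 129S1 in 3672 genes (23.2%), from C57BL/6J in 3189 (20.2%), from A/J in 2677 (16.9%) and from NZO in 3629 (23%). A gene is called set apart here when NOD differed from each of the 4 strains in the same direction at an adjusted p under 0.05. By this rule 332 genes (2.10%) were set apart higher in NOD and 208 (1.32%) lower, and 443 and 195 without the 3 libraries with lens RNA. The same rule applied to the other strains set apart 584 genes (3.69%) in 129S1, 559 (3.54%) in C57BL/6J, 548 (3.47%) in A/J and 557 (3.52%) in NZO, beside 540 (3.42%) in NOD. The number of genes set apart in NOD was thus close to that of any strain of this panel. The distance from the NOD mean to the nearest strain mean had a median of 0.32 on the log2 scale among the genes set apart higher and 0.35 among those lower, and exceeded 1 in 14 and 21 genes. Without comparing means, all 3 NOD libraries lay above all 12 others for 634 genes (4.01%) and below them for 403 (2.55%). Of the genes set apart, 325 of 332 and 204 of 208 were among these.

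These p-values measure the spread between mice within strains. With 1 mean per strain as the unit, 5 genes were higher and 12 lower at an adjusted p under 0.05, and with the 12 other libraries as a single group the counts were 478 and 298. Of 80 genes set apart that are named here, 15 kept an adjusted p under 0.05 with strain means as the unit, among them Cfap126, H3c7, Ubb, Vcp and Rps24. The assignment of reads is uncertain for many of them. Ubb, Vcp and Rps24 have near-identical copies, and Gm14399, Gm14403, Gm14410, Gm14443 and Ttc30a2, also kept, share sequence with other genes. For H3c7 shared sequence was not measured, and Cfap126 reached the limit for testing only through NOD. The other 65 of the 80, with Atf3, Atf4, Mthfd2, Pde6a, Pde6c, Gngt2, Crym, Mef2c, Cd44, Mt1 and Glo1 among them, did not keep it. With a single group Pde6c, Pcp2, Jam2, Glo1 and Rprl3 were lost. The balance of directions moved with scaling and with the libraries used: 58.6% of the genes that differed from the mean of 4 were higher in NOD, against 46.9% after quantile normalization, and among genes set apart the share was 61.5% against 51.5%. Without the 3 libraries with lens RNA these shares were 68.0% and 69.4%.

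Many genes of the integrated stress response were set apart, but none kept an adjusted p under 0.05 with strain means as the unit. This group was listed after the values had been seen, starting from Atf3 and Mthfd2. Of its 36 genes tested, 24 (66.7%) were higher in NOD than the mean of 4 strains and 1, Aldh1l2, was lower (2.78%). Of all genes tested 12.8% were higher and 9.03% lower. Set apart higher were 15 (41.7%) and lower 0, beside 2.10% and 1.32% of all genes tested. At an unadjusted p under 0.05 in all 4 contrasts limma gave the same 15 and 0. Over all 15811 genes tested that rule gave 563 higher and 339 lower, the background of each unadjusted count below. The median difference over the list was 0.29 on the log2 scale, against 0.02 for all genes tested, and it was 0.28 with median-ratio scaling and 0.27 with quantile normalization. The 40 list genes in the table summed to 710.4, 741 and 756 cpm in the NOD libraries and to 528 to 629 cpm in the 12 others, with a median of 583.

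Atf4 (chromosome 15 of GRCm38, 80255184 to 80257541), the central transcription factor of the program, was at 95.1, 98.8 and 104 cpm in NOD and at 52.7 to 73.3 cpm in the others, with a median of 66.2. All 3 NOD libraries lay above all 12. The difference was 0.62 ± 0.05 (SE) on the log2 scale, or 1.54-fold, with an adjusted p of 1.13e-07. Atf3 (chromosome 1, 191170296 to 191218039), a transcription factor induced under stress, was at 3.53, 3.95 and 4.17 cpm in NOD and at 0.618 to 2.44 cpm in the others, with a median of 1.04. The groups did not overlap, and the highest of the other libraries were those of A/J, with a mean of 2.32 ± 0.201 cpm (SD, n = 3) beside 3.88 ± 0.325 cpm in NOD. The difference of Atf3 from the mean of 4 was 1.14 ± 0.06, or 3.01-fold, with an adjusted p of 9.84e-10. Ddit3, which encodes the stress factor CHOP, was at 12.7, 11.9 and 13.3 cpm in NOD against 6.62 to 8.97 cpm, median 8.10, a difference of 1.58-fold. Trib3, an inhibitor of Atf4 and Ddit3, was at 2.65, 2.65 and 3.26 cpm against 0.704 to 1.47 cpm, median 1.08, a difference of 2.64-fold. For both, each NOD library was above each of the 12 others.

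Enzymes downstream of Atf4 were higher too. Mthfd2 (chromosome 6, 83305691 to 83325908), of the mitochondrial folate cycle, was at 5.00, 5.76 and 6.96 cpm in NOD and at 1.02 to 2.99 cpm in the others, with a median of 1.60. No library overlapped, A/J was again nearest with 2.77 ± 0.194 cpm (SD, n = 3), and the difference from the mean of 4 was 1.32 ± 0.08 (SE), or 3.26-fold, with an adjusted p of 4.59e-09. Gm43890, also set apart higher, lies within the span of Mthfd2, and whether the 2 genes share reads was not tested. Aminoacyl-tRNA synthetases, which load amino acids onto transfer RNA, were set apart for alanine (Aars), cysteine (Cars), methionine (Mars), threonine (Tars) and glycine (Gars). Mars and Ddit3 are neighbours among the tested genes of chromosome 10. Cars was at 21.4, 23.3 and 25.0 cpm in NOD against 10.3 to 17.0 cpm, median 12.1, or 1.83-fold higher. Aars was at 77.6, 80.7 and 85.9 cpm against 48.7 to 67.9 cpm, median 56.2, or 1.43-fold higher. The synthetases for asparagine (Nars), serine (Sars) and tryptophan (Wars) were not set apart, and Wars was at 15.1, 14.3 and 15 cpm in NOD against 14.8 to 18.5 cpm. Gpt2, which makes alanine, the transcription factor Cebpg, the amino acid carrier Slc7a1, the serine synthesis gene Psat1 and the lipoprotein receptor Vldlr completed the genes set apart.

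Several other known targets of Atf4 were not set apart. Asns, for asparagine synthesis, was at 6.20, 7.43 and 6.39 cpm in NOD, within the 4.47 to 10.3 cpm of the others. Shmt2, of the same folate cycle as Mthfd2, was at 13.8, 12.3 and 15.1 cpm in NOD and also high in A/J, at 13.7, 12.9 and 12.2 cpm, so that it was higher than the mean of 4 (adjusted p of 2.02e-06) but not set apart. Chac1, at 0.368, 0.349 and 0.209 cpm in NOD, was too low to be tested. Nupr1 was high in NOD replicate 2 (12.9 cpm) and 129S1 replicate 2 (18.9 cpm), both with lens RNA, and at 1.54 and 1.84 cpm in the remaining NOD libraries. Without the 3 libraries with lens RNA 12 genes of the list were set apart. Psat1, Gars and Vldlr were lost, at an adjusted p of 0.0616 and 0.0501 for Psat1 and Gars and just over the threshold for Vldlr, while their differences were 0.47, 0.29 and 0.22, beside 0.48, 0.28 and 0.23 with all libraries. NOD lay above all 9 wild-derived libraries for each of the 15 genes except Psat1 and Slc7a1. It did so for 50.6% of all genes set apart higher and for 9.87% of all genes tested. Genes set apart were chosen for the same NOD values, so a share above that of all genes tested was to be expected. The call of Psat1 was lost when any of A/J replicates 1, 2 and 3, NOD replicates 2 and 3 or NZO replicate 2 was left out (adjusted p of 0.0513 to 0.133 in the nearest contrast). For Slc7a1 this held for A/J replicate 3 and NOD replicates 2 and 3 (0.0508 to 0.0688), for Gars for A/J replicates 1 and 2, C57BL/6J replicate 1 and NOD replicates 2 and 3 (0.0916 to 0.139), and for Vldlr for NOD replicate 3 (0.0578).

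**Figure D1:**
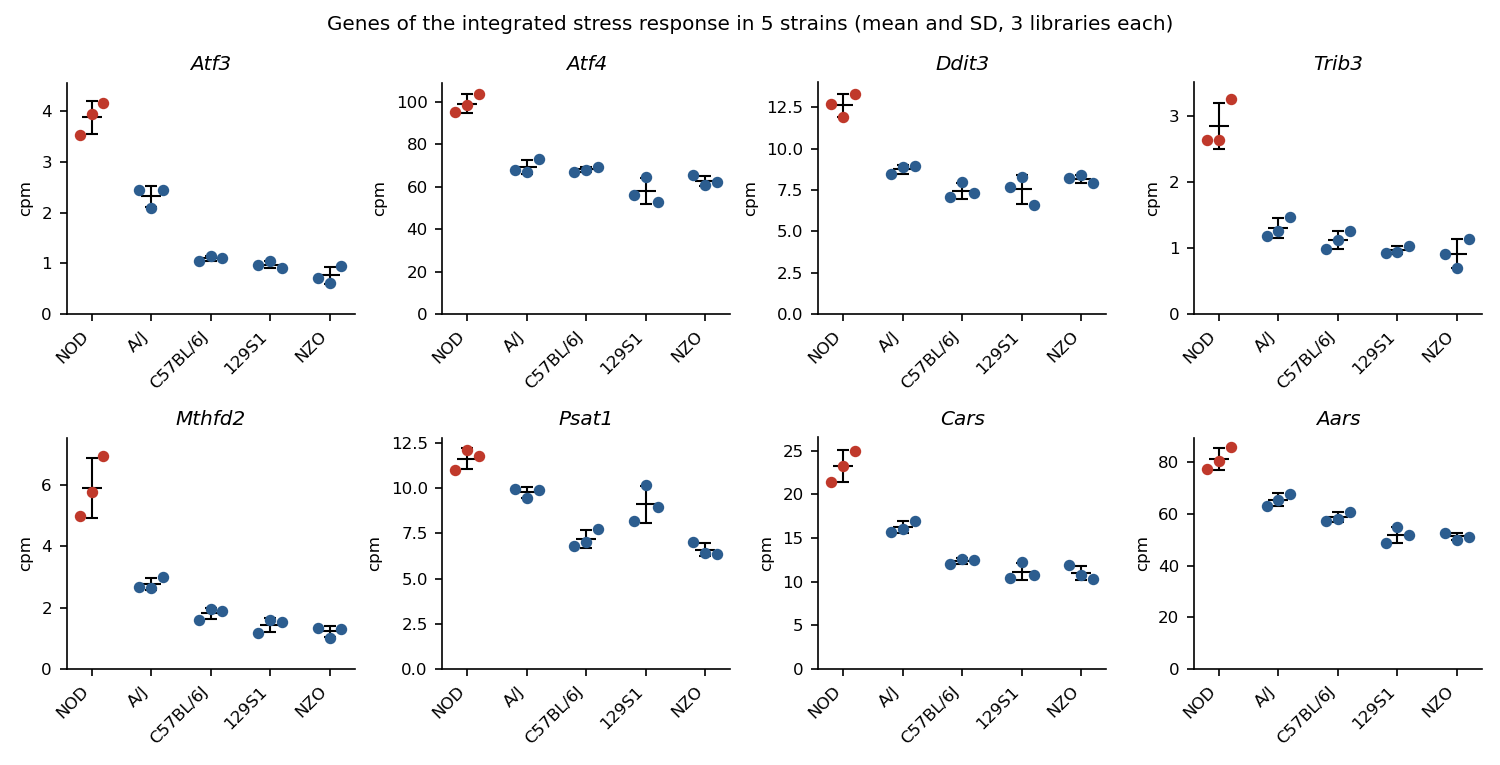
RNA level in cpm (vertical axes, linear, starting at 0) of 8 genes of the integrated stress response, with 1 point per library, and the mean and SD of the 3 libraries of each strain as bars. The NOD points (red) lie above the points of the 4 other strains (blue) in each panel, and A/J is the nearest strain, with Atf3 at 3.88 cpm in NOD and 2.32 cpm in A/J.

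Because these genes moved together, the 250 bases before 1 annotated start were read for 4 of them from RefSeq promoters of GRCm38.p6. The motif searched on both strands was TGATGNAA, a form of the element to which Atf4 and its partners bind, which 1134 of 32851 promoters of this length (3.45%) held. It was found in the window of Atf3 (chr1:191183334-191183583, minus strand), shown with the match in capitals, here on the opposite strand.
Atf3: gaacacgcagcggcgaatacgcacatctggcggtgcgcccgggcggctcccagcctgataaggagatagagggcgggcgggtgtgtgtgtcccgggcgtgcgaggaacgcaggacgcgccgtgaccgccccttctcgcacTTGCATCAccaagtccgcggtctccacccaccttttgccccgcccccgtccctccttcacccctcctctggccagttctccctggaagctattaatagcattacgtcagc
The windows of Trib3, Mthfd2 and Ddit3 did not hold these letters. Those of Atf3 and Mthfd2 lie inside the spans given above for these genes, and other starts of these genes were not read. A match is a description of the sequence, which is that of the reference strain and not of NOD.

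Phototransduction genes differed from gene to gene. Of 29 genes of the rod and cone cascade tested, 7 (24.1%) were higher and 8 (27.6%) lower than the mean of 4, beside 12.8% and 9.03% of all genes tested. Set apart lower were 4 (13.8%, beside 1.32%): Pde6a, Pde6c, Gngt2 and Cnga3. With all libraries and the main adjustment none was set apart higher, and 1, Sag, was at an unadjusted p under 0.05 in the 4 limma contrasts. The median over the list was 0.02, as over all genes tested, and scaling moved it to -0.02 at most. Pde6a, the alpha subunit of the rod phosphodiesterase that breaks down cGMP in light, was at 467, 419 and 437 cpm in NOD and at 496 to 684 cpm in the others, with a median of 570.1. No library overlapped, and the difference was -0.39 ± 0.04 (SE), or 1.32-fold lower, with an adjusted p of 6.23e-07. Its partner subunit Pde6b was not lower, at 738, 677 and 719 cpm in NOD against 553 to 727 cpm, median 644. Pde6c, the catalytic subunit of cones, was at 11.2, 9.95 and 10.2 cpm in NOD against 12.2 to 35.9 cpm, median 13.9. Here C57BL/6J held the highest values and the other 3 strains lay just above NOD, and the difference from the mean of 4 was -0.68 ± 0.05, with an adjusted p of 2.23e-08. Gngt2, the gamma subunit of cone transducin, was at 11.7, 10.5 and 11.9 cpm against 13.4 to 19.2 cpm, median 16.5, or 1.44-fold lower. Cnga3, of the cone channel, was at 2.17, 2.67 and 2.72 cpm against 2.67 to 5.70 cpm, median 3.84, and its groups overlapped, with A/J replicate 3 below NOD replicate 3.

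The call of Cnga3 was lost when any of 13 libraries was left out, all but 129S1 replicate 2 and A/J replicate 3, with adjusted p of 0.0515 to 0.228 in the nearest contrast. Sag, the rod arrestin, was among the higher genes, at 2203, 2142 and 2285 cpm in NOD and at 862 to 1983 cpm in the others, median 1651. It lay above all 12 without being set apart, and was set apart when 129S1 replicate 1, 129S1 replicate 2 or C57BL/6J replicate 2 was left out (largest adjusted p of 0.0404, 0.0456 and 0.0263) and without the 3 libraries with lens RNA (0.0123). With Storey's q-value it was set apart too. Its difference was 0.60, and 0.30 after quantile normalization. Pdc, phosducin, was lower than the mean of 4 at 427, 413 and 375 cpm, within a wide range of 265 to 833 cpm. A list of 17 cone genes was drawn up after the values were seen. In it 5 were higher (29.4%), 5 lower (29.4%) and 3 set apart lower (17.6%), the same Gngt2, Pde6c and Cnga3. Of all genes tested 12.8% were higher, 9.03% lower and 1.32% set apart lower. In bulk tissue, fewer cells of a type and less RNA per cell cannot be told apart. The median difference of the cone list was -0.00.

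Genes for the structure of photoreceptors and for the visual cycle, which renews the light-sensitive pigment, went both ways. Of 26 tested, 9 were higher (34.6%) and 4 lower (15.4%) than the mean of 4, with a median of 0.09. Of all genes tested 12.8% were higher and 9.03% lower. Set apart were 3 higher and 1 lower (15.4% together, beside 3.42% of all genes tested). Cdhr1, a cadherin at the base of the outer segment, was at 333, 302 and 322 cpm in NOD and at 189 to 277 cpm in the others, median 211. All 3 NOD libraries lay above the rest, 1.42-fold over the mean of 4 (adjusted p of 5.06e-07). Retsat, which saturates retinol, was at 3.44, 3.30 and 3.57 cpm against 1.73 to 2.15 cpm, median 1.86, or 1.82-fold higher, though 18.4% of its exon bases overlap Gm45053 on the opposite strand. Rdh8, the retinol dehydrogenase of outer segments, was at 31.2, 26.7 and 32.0 cpm against 21.1 to 26.1 cpm, median 22.8, and its call was lost without 129S1 replicate 1, NOD replicate 1 or NOD replicate 3 (adjusted p of 0.0512 to 0.0668). Mak, a kinase of the photoreceptor cilium, was lower at 64.9, 62.8 and 64.4 cpm against 74.3 to 88.9 cpm, median 87.3, with a difference of -0.39 ± 0.03 (SE) and an adjusted p of 1.61e-08. Prph2, a structural protein of the disc rim, was at 852, 827 and 837 cpm against 846 to 1178 cpm, lower than the mean of 4 and not set apart. It was set apart when 129S1 replicate 1 was left out (-0.28), and with median-ratio scaling (-0.29), quantile normalization (-0.32) and Storey's q-value (-0.26). Without the 3 lens libraries Rp1l1 was set apart higher (0.35).

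**Figure D2:**
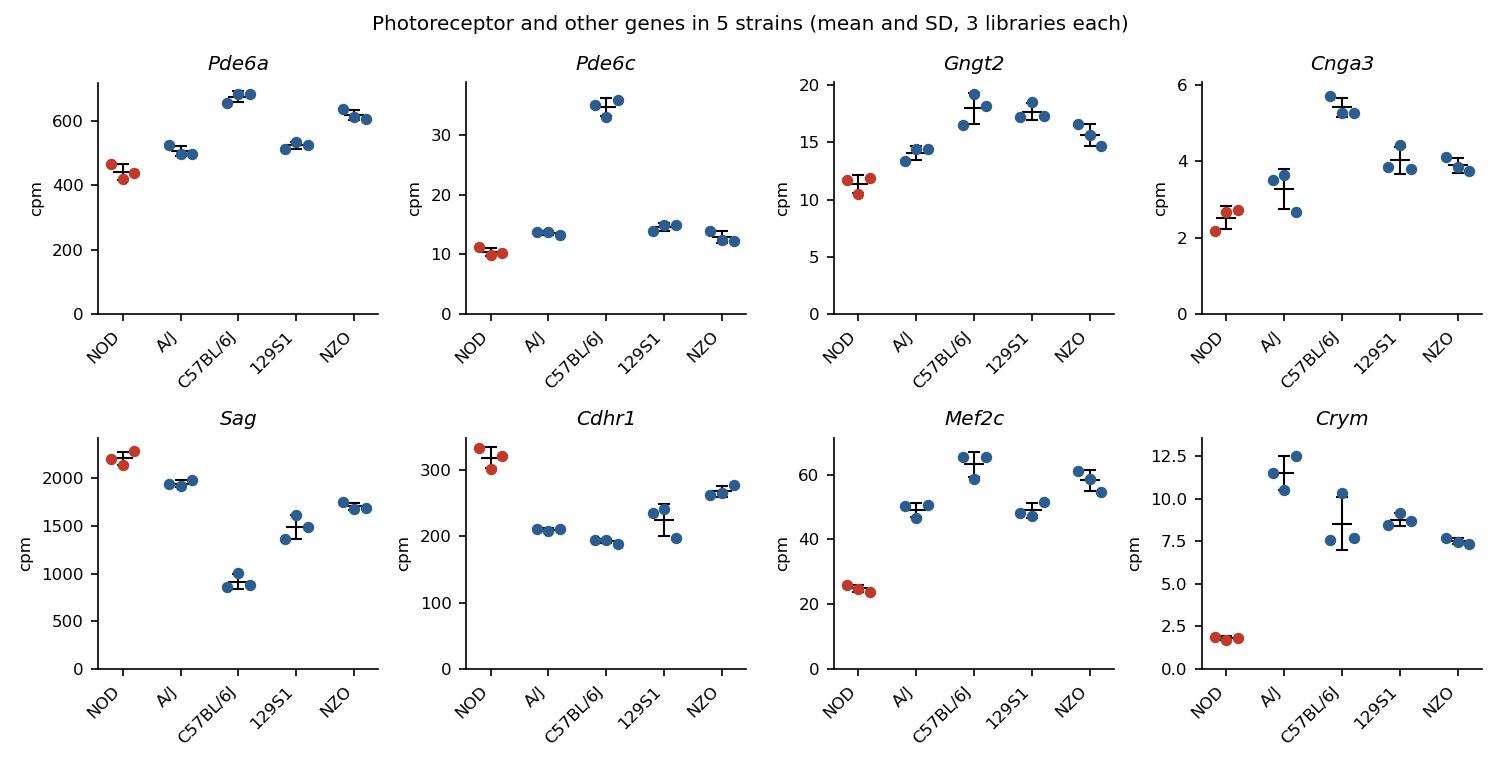
RNA level in cpm (vertical axes, linear, starting at 0) of 6 photoreceptor genes, Mef2c and Crym, with 1 point per library and the mean and SD of the 3 libraries of each strain as bars. NOD (red) is lowest for Pde6a, Pde6c, Mef2c and Crym, with Crym at 1.82 cpm, and highest for Sag and Cdhr1, while a Cnga3 value of A/J (blue) lies among those of NOD.

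Downstream of the photoreceptors lie the ribbon synapse and the bipolar cells. Of 23 genes of these tested, 12 (52.2%) were higher and 2 (8.70%) lower than the mean of 4, beside 12.8% and 9.03% of all genes tested, with a median of 0.16 that was 0.13 with median-ratio scaling and 0.11 with quantile normalization. Set apart were Pcp2 and Grik1, both higher (8.70%, beside 2.10% of all genes tested). Pcp2, a marker of ON bipolar cells, was at 36.4, 35.6 and 36.8 cpm in NOD and at 15.3 to 31.9 cpm in the others, median 24.7. No library overlapped, at 1.49-fold over the mean of 4, but 51.5% of its exon bases overlap Pet100 on the opposite strand. The call of Pcp2 was lost without any of A/J replicates 1, 2 and 3 and NOD replicates 1 and 3 (adjusted p of 0.0565 to 0.0763). Grik1, a glutamate receptor of OFF bipolar cells, was at 52.5, 53.2 and 50.7 cpm against 39.9 to 48.3 cpm, median 43.7, and its call was lost without 129S1 replicate 3 or NOD replicate 2 (0.0553 and 0.0690) and without the 3 libraries with lens RNA (0.0814), as well as with both other scalings. Grm6, the glutamate receptor of ON bipolar cells, was at 29.8, 26.1 and 32.1 cpm against 18.4 to 29.6 cpm, higher than the mean of 4 and not set apart. Prkca, the kinase that marks rod bipolar cells, was at 74.2, 75.8 and 78.6 cpm against 56.0 to 149 cpm, median 126, lower than the mean of 4 but higher than A/J (adjusted p of 1.03e-05), which was at 59.7, 56.3 and 56.0 cpm. Leaving out the 3 lens libraries set Cabp4 and Cacna2d4 apart higher, with differences of 0.24 and 0.33.

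Beside 12.8% higher, 9.03% lower and 3.42% set apart of all genes tested, amacrine and horizontal cells gave 3 higher (12.5%) and 6 lower (25.0%) of 24 genes and 0 set apart by limma, with a median of -0.06, and 2 genes, Th and Prdm8, at an unadjusted p under 0.05 in all 4 contrasts. Th, which makes dopamine, was set apart higher without 129S1 replicate 2, C57BL/6J replicate 2 or NZO replicate 1 (differences of 0.29, 0.29 and 0.26), without the 3 lens libraries (0.30), with quantile normalization (0.26) and with Storey's q-value (0.28). Ganglion cells gave 3 higher (15%) and 0 lower of 20, with 1 (5.00%), Jam2, a junction protein, set apart higher at 61.9, 62.5 and 59.3 cpm against 34.2 to 54.4 cpm, median 51.3. Müller glia and astrocytes gave 6 higher (24.0%) and 1 lower (4.00%) of 25, with a median of 0.18 and 1 set apart (4.00%). This was Cd44, a surface receptor for hyaluronan found on Müller glia, at 7.65, 9.94 and 7.64 cpm in NOD and at 1.98 to 4.81 cpm in the others, with a median of 3.15. Each NOD library was above each other one, and the difference was 1.12 ± 0.14 (SE), or 2.48-fold, with an adjusted p of 2.17e-05. Its highest value came from the NOD library with lens RNA, and the call held without the 3 such libraries. Glul, the glutamine synthetase of Müller glia, was at 750.1, 769 and 729 cpm in NOD against 523 to 716 cpm, median 638. It was higher than the mean of 4 (adjusted p of 0.000982) and not set apart. It was set apart without 129S1 replicate 2 (0.27) or A/J replicate 1 (0.24), and with Storey's q-value (0.25). Among 20 general retina markers 19 were tested, 7 were higher, 4 lower and 1, Pcp2, set apart.

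Genes of glutathione and oxidative stress held 6 set apart of 31 tested (19.4%, beside 3.42% of all genes tested), of which 4 were higher and 2 lower, while the median over the list was 0.01. Mt1 and Mt2, neighbouring metallothionein genes whose products bind zinc and copper, were both higher. Mt1 was at 9.15, 9.47 and 9.40 cpm in NOD and at 4.92 to 6.88 cpm in the others, median 5.60. The groups did not overlap, with a difference of 0.63 ± 0.06 (SE), or 1.64-fold, and an adjusted p of 3.68e-07. Mt2 was at 1.98, 2.04 and 2.08 cpm against 0.704 to 1.73 cpm, median 0.983, or 1.96-fold higher, and 73.5% of its exon bases overlap Gm45774 on the opposite strand. Glo1, the glyoxalase that clears methylglyoxal, a by-product of glucose use, was lower at 29.8, 30.2 and 28.3 cpm against 35.8 to 115 cpm, median 66.8, or 2.39-fold below the mean of 4 (adjusted p of 1.77e-10). The other strains spread widely here, and NZO was the nearest.

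Smaller differences in the same list were found in Hmox1, Cat and Sod2. Hmox1, heme oxygenase, was at 0.998, 1.77 and 0.795 cpm in NOD against 0.525 to 0.734 cpm, with its highest value in the NOD library with lens RNA, and its largest adjusted p was 0.133 without the 3 lens libraries. The difference of Hmox1 was 0.24 there and 0.42 with all libraries. Cat, catalase, was at 7.55, 7.79 and 7.57 cpm against 4.67 to 6.82 cpm, and its call was lost without those libraries too (0.0683) with a difference of 0.41, beside 0.40 with all. Sod2, the mitochondrial superoxide dismutase, was lower at 67.9, 66.3 and 63.1 cpm against 71.0 to 78.5 cpm. Without NOD replicate 2 the list kept 2 genes set apart higher of 4, and each loss of Sod2 left 1 lower. Single libraries ended these calls as follows: 129S1 replicate 1, A/J replicates 1, 2 and 3 or NOD replicate 2 for Hmox1 (0.0614 to 0.129), C57BL/6J replicates 1 and 3, NOD replicates 1, 2 and 3 or NZO replicate 2 for Cat (0.0536 to 0.119), and 129S1 replicate 3, A/J replicate 3, NOD replicate 3 or NZO replicates 1 and 2 for Sod2 (0.0535 to 0.104). Gsta1, a glutathione transferase, was at 0.151, 0.159 and 0.0174 cpm in NOD and was not tested.

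Since Mt1 and Mt2 moved together, their 250 bases before the start (RefSeq, GRCm38.p6, plus strand, chr8:94178839-94179088 and chr8:94172368-94172617) are shown with matches to TGCRCNC, where R is A or G, the core of the metal response element, in capitals. Both strands were searched, and 7032 of 32851 promoters (21.4%) held these letters, with 1 match in Mt1 and 3 in Mt2.
Mt1: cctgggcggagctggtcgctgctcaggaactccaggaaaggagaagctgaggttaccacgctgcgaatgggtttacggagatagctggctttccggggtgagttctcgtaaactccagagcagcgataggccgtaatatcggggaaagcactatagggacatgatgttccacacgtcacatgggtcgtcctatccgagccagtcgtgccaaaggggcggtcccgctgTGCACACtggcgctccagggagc
Mt2: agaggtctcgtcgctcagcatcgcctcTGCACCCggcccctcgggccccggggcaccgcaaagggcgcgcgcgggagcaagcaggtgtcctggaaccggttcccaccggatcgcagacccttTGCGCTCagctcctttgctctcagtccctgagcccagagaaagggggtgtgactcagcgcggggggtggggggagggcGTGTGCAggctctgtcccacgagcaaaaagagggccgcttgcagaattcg

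NOD is known outside the eye for its immune system. The 4 lists of such genes held no member set apart with all libraries, in lists so short that at the 3.42% of all genes tested each would hold less than 1. Against the mean of 4, 12.8% of all genes tested were higher and 9.03% lower. Of 12 genes of microglia and complement tested, 0 were higher and 2 lower (16.7%). Itgam, a surface integrin of microglia and white blood cells, was set apart higher when NOD replicate 2 was left out (difference of 0.30, largest adjusted p of 0.0170) and without the 3 lens libraries (0.0303). Aif1, a microglial marker, was at 0.158, 0.188 and 0.237 cpm in NOD, below the limit for testing. Genes of the major histocompatibility complex and antigen processing gave 1 higher (H2-D1) and 1 lower (H2-T22) of 12 tested (8.33% each). H2-K1 was at 2.27, 2.20 and 2.69 cpm in NOD and 0.762 to 4.18 cpm in the others. The interferon response gave 2 higher (9.09%) and 4 lower (18.2%) of 22. Of 25 candidate genes of insulin-dependent diabetes loci with values, 11 were tested, with 0 higher and 2 lower (18.2%), Ptpn22 and Ifih1. Il2, a cytokine gene and a candidate at 1 of these loci, was at 0.0146 cpm in NOD replicate 1 and had no read in NOD replicates 2 and 3. Nlrp1a, of the same list and also too low to be tested, had reads in each NOD library and is given under other observations. In these 4 lists limma gave 0 genes set apart, and at an unadjusted p under 0.05 in all 4 contrasts it gave 1, Ctss of the microglial list, which was lower, and 0 in each of the other 3. With the A/J strain left out H2-T22 (-0.61) and Ifih1 (-0.45) were set apart lower. There 1 comparison fewer had to be passed, and over all genes tested those set apart lower rose from 208 to 377. C4a, a complement gene outside the lists that was named after its values were seen, was set apart higher at 1.73, 1.44 and 1.89 cpm against 0.477 to 1.28 cpm, and shares 43.3% of its 31-base words with C4b. Its call was lost without NOD replicate 1, NOD replicate 3 or NZO replicate 1 (adjusted p of 0.0644, 0.0975 and 0.0933) and with a pseudocount of 0.1.

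Genes of insulin signalling and glucose use gave 4 higher (12.5%), 3 lower (9.38%) and 1 set apart (3.12%) of 32 tested. These shares were close to the 12.8%, 9.03% and 3.42% of all genes tested. The gene set apart was Ldhb, a subunit of lactate dehydrogenase, which was lower. Ldhb was at 16.8, 13.8 and 15 cpm in NOD and at 19.4 to 26.9 cpm in the others, median 22, or 1.48-fold below the mean of 4, with an adjusted p of 5.25e-07 and no overlap. Insr, the insulin receptor, was at 58.8, 57.3 and 57.5 cpm against 50.2 to 63.2 cpm. Of 22 genes of hypoxia and vessels, 5 were higher (22.7%), 1 lower (4.55%) and 1 set apart (4.55%), beside the same 12.8%, 9.03% and 3.42%. Kdr, the receptor for the vessel growth factor Vegfa, was set apart higher at 81.4, 77.1 and 78.8 cpm against 58.1 to 74.1 cpm. The call of Kdr was lost when any of 12 libraries was left out, all but 129S1 replicate 1, C57BL/6J replicate 2 and NZO replicate 1 (adjusted p of 0.0504 to 0.210), without the 3 lens libraries (0.0534), and with both other scalings. Ndrg1, a hypoxia gene, was set apart higher without 129S1 replicate 2 (0.46), with median-ratio scaling (0.41) and with Storey's q-value (0.44), and without the 3 lens libraries Ndrg1 (0.50), Vegfa (0.35) and the glycolytic gene Eno2 (0.31) were. The circadian clock gave 2 higher (7.69%) and 3 lower (11.5%) of 26, beside 12.8% and 9.03% of all genes tested. It gave 0 set apart, at adjusted and at unadjusted p in limma, with Clock at 103, 101 and 99.8 cpm against 90.5 to 107 cpm. Of 12 immediate early genes tested, which respond within minutes to activity, 1, Atf3, was higher and set apart (8.33%, beside 12.8% and 3.42%). Fos was at 3.73, 6.11 and 7.59 cpm against 2.41 to 11.7 cpm. The 15 mitochondrial genes gave 0 higher and 1 lower, mt-Nd3 (6.67%, beside 9.03% of all genes tested). By limma 0 were set apart at adjusted or unadjusted p, though mt-Nd3 was set apart lower without the 3 lens libraries (-0.59). For mt-Nd1 the values were 530.3, 591 and 489.8 cpm against 333 to 749 cpm.

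Genes of pigment and of neighbouring tissues were looked at as markers, beside 12.8% higher, 9.03% lower and 3.42% set apart of all genes tested. Tyr, the melanin enzyme, was at 1.88, 0.927 and 0.642 cpm in NOD against 0.408 to 1.70 cpm. The 8 melanin genes tested gave 2 higher (25.0%), Trpm1, which bipolar cells also use, and Mc1r, and 0 set apart. Mc1r was at an unadjusted p under 0.05 in all 4 limma contrasts. It was set apart without C57BL/6J replicate 1 (0.50) and with Storey's q-value (0.52). The retinal pigment epithelium gave 2 higher (18.2%) and 1 lower (9.09%) of 11 and 0 set apart, also 0 unadjusted. Rpe65 was at 2.85, 2.14 and 2.06 cpm against 1.30 to 7.74 cpm. The lens list gave 0 higher, 0 lower and 0 set apart of 22, the last also unadjusted, although its median difference was 0.97, which rests on NOD replicate 2. Of 6 blood genes, 2 were higher (33.3%), 2 lower (33.3%) and 1 set apart (16.7%). This was Hbb-bt, a beta globin, higher at 2.33, 2.43 and 2.40 cpm against 0.365 to 1.62 cpm. Hbb-bt shares 59.4% of its 31-base words with Hbb-bs, and its call was lost without NZO replicate 3 (adjusted p of 0.0517). Among genes listed as checks of the labels, Nnt, which is known for a deletion in C57BL/6J, was at 4.81, 4.72 and 4.93 cpm in that strain, between 129S1 (3.25, 4.12 and 3.83 cpm) and NZO (3.60, 3.42 and 3.22 cpm) below and NOD (7.50, 7.74 and 7.13 cpm) and A/J (6.92, 7.56 and 7.63 cpm) above, so it gave no check of that label. Hc was at 0.0394 cpm or less. Of the 8 genes of that list, 2 were tested, 1 was higher and 0 were set apart, adjusted or not.

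Outside these lists, Crym (chromosome 7, 120186380 to 120202111), whose product mu-crystallin binds thyroid hormone, gave 1 of the widest gaps free of shared sequence. It was at 1.90, 1.72 and 1.84 cpm in NOD and at 7.36 to 12.5 cpm in the others, with a median of 8.56. The groups were far apart, with a difference of -1.82 ± 0.07 (SE), or 4.99-fold lower, and an adjusted p of 1.85e-11, and NOD was also below all wild-derived libraries (5.85 to 12.7 cpm). Mef2c (chromosome 13, 83504034 to 83667080), a transcription factor of neurons and photoreceptors, was named after its values were seen. It was at 26.0, 24.8 and 23.9 cpm in NOD and at 46.6 to 65.5 cpm in the others, median 53.2, 2.20-fold lower with an adjusted p of 2.87e-11, and again below all wild-derived libraries (46.9 to 75.0 cpm). Cyp4f13, a cytochrome that oxidises fatty acids, was at 0.486, 0.712 and 0.544 cpm in NOD against 4.36 to 9.61 cpm, median 5.76, or 10.6-fold lower. C2cd6 was at 0.463, 0.335 and 0.335 cpm against 3.27 to 6.04 cpm, median 4.54, or 12.3-fold lower. For both genes the highest NOD value was far under the lowest of the 12. Amy1, an amylase, was at 11.5, 11.3 and 11.1 cpm against 28.0 to 40.7 cpm, median 34.3, and shares 32.7% of its exon bases with Rnpc3 on the same strand. The remaining protein-coding genes with the largest gaps downward were Lrrc66, Pgap2, 1700109H08Rik and 4930447C04Rik, the last antisense to the eye gene Six6 over 3.21% of its exon bases, and they were between 2.44-fold and 3.52-fold lower.

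Upward, Cfap126 (chromosome 1, 171113918 to 171126967), a protein of motile cilia, was at 3.58, 3.43 and 3.01 cpm in NOD and at 0.0487 to 0.276 cpm in the others, with a median of 0.113. The groups were far apart, and the difference was 1.93 ± 0.05 (SE) with an adjusted p of 7.50e-14. Its mean reached 0.5 cpm only through the NOD libraries, so it was tested only because it was high in NOD. With no filter on low values it was set apart as well, with a difference of 1.93. Col5a1 (chromosome 2, 27886425 to 28039514), a fibrillar collagen, was at 14.1, 12.1 and 13.5 cpm against 3.25 to 5.67 cpm, median 4.80. It was 2.93-fold higher with an adjusted p of 4.92e-09, and above all wild-derived libraries (1.34 to 3.96 cpm). In a list of collagens made after the values were seen, 35 were tested. Of these 9 were higher (25.7%), 3 lower (8.57%) and 3 set apart higher (8.57%), beside 12.8%, 9.03% and 2.10% of all genes tested. Besides Col5a1 those set apart were Col11a1 and Col27a1. Col27a1 was at 8.80, 7.92 and 8.91 cpm in NOD against 3.25 to 5.76 cpm, and Col11a1 at 10.2, 9.21 and 9.99 cpm against 4.27 to 8.06 cpm. Each stood clear of the 12 others. Col11a2 was set apart higher as well when 129S1 replicate 1 (0.54), A/J replicate 1 (0.60), C57BL/6J replicate 1 (0.53) or C57BL/6J replicate 2 (0.61) was left out. The same held with Storey's q-value (0.56) and without the 3 lens libraries (0.68), where Col4a4 was set apart lower (-0.96).

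Tgm3, a transglutaminase that cross-links proteins, was at 6.56, 5.98 and 6.19 cpm in NOD and spread from 0.0159 to 3.37 cpm in the others. Npl, an enzyme that splits sialic acid, was at 5.36, 5.98 and 4.97 cpm against 1.02 to 3.05 cpm, median 1.72, or 3.04-fold higher. Igfn1 was at 33.8, 24.5 and 31.9 cpm against 9.22 to 18.6 cpm, median 12.4, or 2.46-fold higher. None of these overlapped the 12 others. Arhgap10, which switches off small GTPases, was at 66.6, 64.3 and 64.7 cpm against 29.3 to 36.4 cpm, median 34.6, or 1.94-fold higher, with an adjusted p of 3.02e-11. Psmc3ip, a factor of meiotic recombination, was 2.98-fold higher, and 21.2% of its exon bases overlap Mlx on the opposite strand. Zfp729a, a zinc finger gene, was 2.32-fold higher. Ttc30a2, of the transport inside cilia, was 3.94-fold higher and shares 61.3% of its 31-base words with other genes. Hspa1b, an inducible heat shock protein, was at 16.7, 15.4 and 17.0 cpm against 4.87 to 11.2 cpm, median 7.31, but shares 68.1% of its words, mostly with Hspa1a, which was at 12.6, 10.2 and 13.8 cpm against 9.29 to 20.6 cpm. Among 19 heat shock genes tested, listed after the values were seen, 5 were higher (26.3%), 2 lower (10.5%) and 1, Hspa1b, set apart (5.26%). Of all genes tested these shares were 12.8%, 9.03% and 3.42%.

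Of the noncoding genes, the lncRNA Gm33347 was at 23.5, 17.6 and 20.8 cpm in NOD and at 0.0159 cpm or less in all 12 others, under the floor of 3 reads. Gm33347 too reached the limit for testing only through NOD, and with no filter it was set apart with a difference of 4.42. It was present in some wild-derived libraries, up to 22.1 cpm. Rprl3, a copy of the RNA of ribonuclease P, was at 339.7, 429 and 323 cpm in NOD against 83.0 cpm at most. In the opposite direction the lncRNA AL590864.1 had no read in any NOD library and was at 2.01 to 2.84 cpm in the others, so that it was at least 56.1-fold lower against the floor of 0.0418 cpm per library. Its neighbour Gm11342 had no read in NOD replicates 1 and 3 and 0.0270 cpm in replicate 2, against 7.79 to 11.2 cpm. Both were also close to or under the floor in some wild-derived libraries. Gm15983 was at 0.158, 0.242 and 0.321 cpm against 6.29 to 10.1 cpm, and Gm37079 at 1.59, 1.18 and 1.79 cpm against 5.57 to 8.70 cpm. By type, 437 of 12504 protein-coding genes were set apart (3.49%) and 46 of 965 lncRNAs (4.77%), 20 higher and 26 lower. Processed pseudogenes, copies of messenger RNA in the genome, were set apart in 17 cases higher (2.07%, beside 2.10% of all genes tested) and 2 lower (0.243%, beside 1.32%) of 823 tested.

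Several genes with large gaps downward had a near-identical copy that was higher in NOD. This was looked for after the values were seen, and reads that match both can be assigned to either. Ubb, a ubiquitin gene, was at 101, 102 and 96.3 cpm in NOD against 241 to 288 cpm, and its copy Gm1821 at 225, 194 and 195 cpm against 55.5 to 78.8 cpm. Their sum was 325, 296 and 291 cpm in NOD beside 310.4 to 367 cpm, so that most of the gap closed. Vcp, an ATPase that extracts ubiquitinated proteins, was at 11.9, 10.7 and 11.3 cpm against 35.9 to 42.1 cpm, with Vcp-rs on chromosome X at 90.9, 82.8 and 87.7 cpm against 64.9 to 75.1 cpm. The sum of the pair was 103, 93.5 and 98.9 cpm in NOD beside 102 to 117 cpm. Rps24, a ribosomal protein, was at 22.8, 22.5 and 20.5 cpm against 44.3 to 64.1 cpm, and summed with Rps24-ps3 it was at 66.4, 65.1 and 60.0 cpm beside 58.5 to 78.8 cpm. Rps19 with Rps19-ps6 came to 16.1, 18.0 and 16.6 cpm beside 13.3 to 19.8 cpm. For the ribosomal pairs the summed NOD values lay within the range of the others. The level of such a gene alone cannot be told apart from a shift of its reads to the copy. Of 65 ribosomal protein genes tested, listed after the values were seen, 1 was higher (1.54%), 12 lower (18.5%) and 2, Rps19 and Rps24, set apart lower (3.08%). Of all genes tested these shares were 12.8%, 9.03% and 1.32%. Rpl37a was added when 129S1 replicate 1 (-0.39), 129S1 replicate 3 (-0.35) or C57BL/6J replicate 1 (-0.39) was left out, and with a pseudocount of 0.1 (-0.42), median-ratio scaling (-0.39), quantile normalization (-0.40) and Storey's q-value (-0.36). Rpl32l, a pseudogene of Rpl32, was at 6.54, 6.40 and 6.16 cpm against 0.900 to 1.75 cpm.

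**Figure D3:**
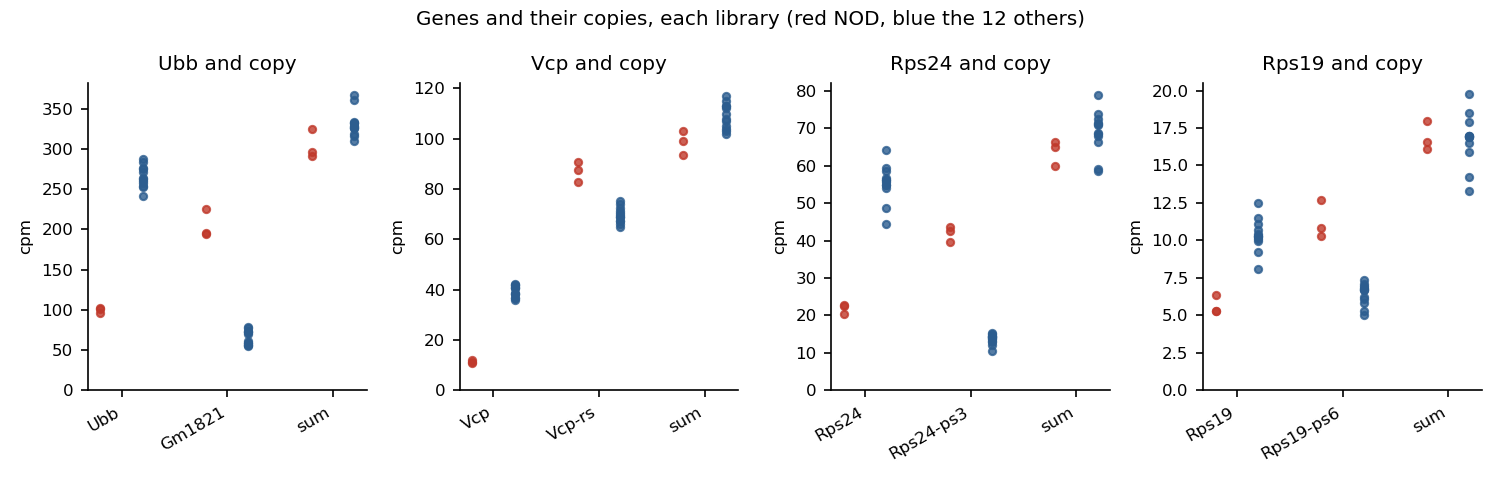
RNA level in cpm (vertical axes, linear, starting at 0) of 4 genes, their copies and the sum of each pair, with 1 point per library, NOD in red and the 12 other libraries in blue. The gene is lower and the copy higher in NOD in each panel, while the sums lie close together, for Ubb at 291 to 325 cpm in NOD beside 310.4 to 367 cpm.

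Genes set apart lay near each other more often than genes at large. After a gene set apart, the next tested gene was set apart in 12.1% of cases, against 3.42% of all genes tested, and 120 of them (22.2%) fell in 55 runs of neighbours. Chromosome 13 held the largest share of its genes set apart (6.84%, 45 of 658), followed by chromosome 2 (4.52%, 55 of 1218), and chromosome 16 the smallest among the autosomes (1.84%). In windows of 5 Mb, 20 of 49 genes were set apart at 175 to 180 Mb of chromosome 2 (40.8%), 13 higher and 7 lower. This stretch holds a cluster of zinc finger genes with closely similar sequence. Gm14399 was at 1.68, 1.58 and 1.52 cpm in NOD against 19.4 to 24.6 cpm, median 21.7, and Gm14443 at 0.722, 0.629 and 0.642 cpm against 11.2 to 14.7 cpm, median 12.4. A short way along, Gm14403 was at 17.4, 18.0 and 14.6 cpm against 2.18 to 3.13 cpm, median 2.75, and Gm14410 at 37.1, 35.4 and 34.2 cpm against 10.4 to 12.1 cpm, median 11.3. Gm14434 was 3.58-fold higher and Gm14440 was 5.04-fold lower. The share of 31-base words held in common with other genes was 100% for both of these, 91.6% for Gm14410, 81.9% for Gm14399, 57% for Gm14403 and 33.6% for Gm14443, so the values of all 6 are uncertain. Over the genes with a transcript sequence, 58 of 516 set apart (11.2%) shared over 50% of their words with another gene, against 1283 of 15561 tested (8.24%).

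The other window with 20 genes set apart was 20 to 25 Mb of chromosome 13 (28.6% of 70), with 6 higher and 14 lower. Windows with fewer genes had as large a share, on chromosome 5 at 0 to 5 Mb (7 of 24, 29.2%) and 5 to 10 Mb (8 of 28, 28.6%). The window of chromosome 13 holds the large cluster of replication-dependent histone genes, whose proteins package newly made DNA. Over the genome 44 such histone genes, listed after the values were seen, were tested. Of these 16 were higher (36.4%) and 15 lower (34.1%) than the mean of 4, beside 12.8% and 9.03% of all genes tested. Set apart were 6 higher and 8 lower (31.8% together, beside 3.42% of all genes tested), while the median was 0.13. The largest gap was that of H3c7, at 0.475, 0.359 and 0.358 cpm in NOD and 4.38 to 7.65 cpm in the others, median 5.72, which is 14.1-fold lower with an adjusted p of 5.84e-13. H2ac19, on chromosome 3, was at 9.02, 8.32 and 8.80 cpm against 16.3 to 25.7 cpm, or 2.48-fold lower. H2bc12 was at 2.34, 2.64 and 2.71 cpm against 0.394 to 1.45 cpm, or 2.90-fold higher. Summed over the 63 genes of the list, histone RNA was at 324, 335 and 312 cpm in NOD, within the 297 to 355 cpm of the others. Without C57BL/6J replicate 2 the count of histones set apart higher was 10, and with any other library left out it was 4 to 8. The count lower was 6 to 8. Without the 3 libraries with lens RNA the counts were 8 higher and 8 lower. Without the C57BL/6J strain the counts were 13 and 11, without A/J 11 and 8, with Storey's q-value 10 and 9, and at a mean of at least 5 cpm 1 and 4, while both other scalings gave 4 and 9. With a strain left out 1 comparison fewer had to be passed. Over all genes tested 332 and 208 then became 485 and 276 without C57BL/6J, and 537 and 377 without A/J. Shared sequence was not measured for H3c7, H2ac19 and H2bc12, which had no matched transcript. In the same window lie the lncRNAs Gm11342 and AL590864.1.

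**Figure D4:**
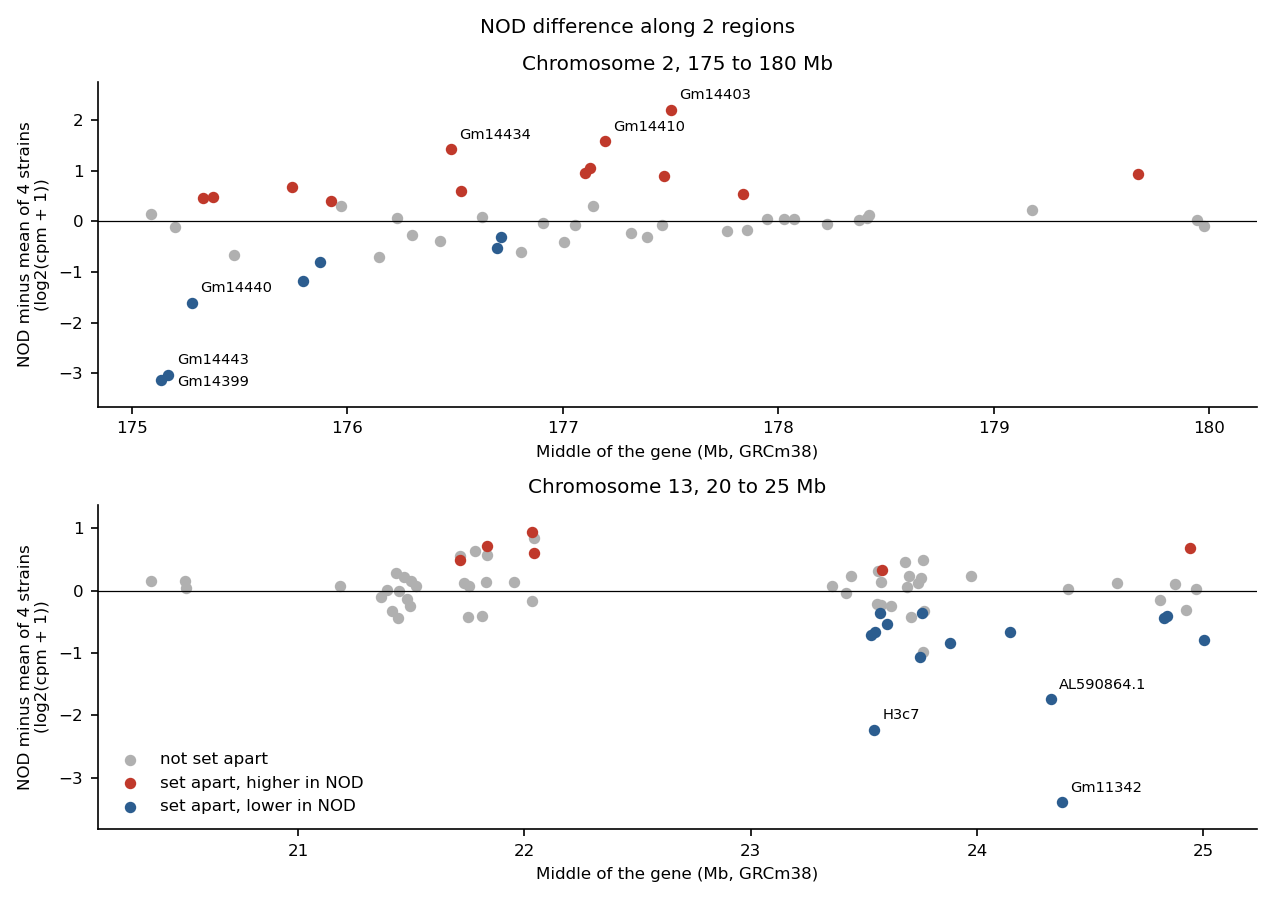
Difference of NOD from the mean of 4 strains on log2(cpm + 1) (vertical axes) against the middle of each tested gene in Mb of GRCm38 (horizontal axes), for 175 to 180 Mb of chromosome 2 and 20 to 25 Mb of chromosome 13. Each point is a gene, red if set apart higher in NOD, blue if lower and grey if not set apart, and genes of both directions lie side by side, from -3.12 for Gm14399 to 2.21 for Gm14403 on chromosome 2 and down to -3.39 for Gm11342 on chromosome 13.

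The wild-derived strains, which had no part in choosing the genes, gave a further range to read NOD against. Of the 332 genes set apart higher, 168 (50.6%) were also above all 9 wild-derived libraries in all 3 NOD libraries, and 76 of the 208 lower (36.5%) were below them. Of all genes tested 9.87% and 3.69% were, and since the genes set apart were chosen for the same NOD values, higher shares among them were to be expected. Atf4, Cfap126, Col5a1, Cdhr1 and Glo1 are among these. Vcp and Rps24 are not, since at least 1 wild-derived library was as low as NOD, with 9.43 and 19 cpm. Mt1, Retsat and Cd44 overlapped the wild-derived range.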

How the data were processed

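Total RNA of retinas was sequenced after removal of ribosomal RNA. The authors trimmed the reads and used STAR for alignment (GRCm38/mm10) and the E/M model of Partek Flow for gene counts, with no versions stated. The authors deposited cpm, each count over the library's total reads, plus 0.0001. The methods name RefSeq, while the biotypes are of an Ensembl type. The strand of counting is not stated, so genes that overlap on opposite strands are uncertain. All 24 columns matched a sample and 0 were without one. Between 87.2% and 89.5% of low values were whole reads (within 0.02 of a read, under 20 reads), so no count model was used. Totals came from the size of 1 read.

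Values were log2(cpm + 1), genes needed a mean of at least 0.5 cpm over the 15 libraries (29.7 to 39.1 reads), and chromosomes X and Y were left out. limma 3.58.1 in R 4.3.3 (lmFit, contrasts.fit, eBayes with trend) fitted 5 strain means with 10 residual degrees of freedom, two-sided, with Benjamini-Hochberg adjustment over all genes tested at 0.05. Tables and figures used Python 3.11.15, pandas 2.3.3, numpy 2.4.6 and matplotlib 3.10.9. The fit was tested on simulated data.

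Named are the 15 protein-coding genes with the largest and the 15 with the smallest gap (NOD mean minus nearest strain mean) among genes set apart, 4 of each direction of other types, each member set apart of the lists below up to the label checks, the first gene of each of these lists and the label checks, except for genes that are not reported here. Any other gene, with members of the lists added later, was chosen with its values in view. The lists cover melanin, pigment epithelium, lens, blood, retina markers, phototransduction, photoreceptor structure, synapse and bipolar cells, amacrine and horizontal cells, ganglion cells, Müller glia, microglia, antigen processing, interferon, diabetes loci, clock, immediate early genes, insulin and glucose, hypoxia and vessels, glutathione, mitochondrial genome and label checks. Lists of the integrated stress response, heat shock, cones, histones, collagens and ribosomal proteins were added after the values were seen. The members and lists were chosen with earlier results of these data known.

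Alternatives were a pseudocount of 0.1, no filter, a filter at a mean of 5 cpm, scaling by median ratios, quantile normalization, Storey's q-value, a threshold of 0.01, keeping X and Y, leaving out the 3 libraries with lens RNA, lens level as a covariate, leaving out each strain and each library, 2 groups, and strain means. Leaving out the 2 libraries with high Xist was chosen after seeing the data.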

Additional observations from a re-analysis of the deposited data

Results flagged for a closer look

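Chromosome X was outside the tests. With X and Y kept, 526 X genes were tested, and 4 were set apart higher and 4 lower in NOD. Together these were 1.52% of the X genes, below the 3.42% of all genes in the main tests. The signals above the level of the other strains are given as the gap on the log2 scale between the NOD mean and the nearest strain mean. Rps24-ps3, the copy of Rps24, had a gap of 1.47, with 43.6, 42.6 and 39.5 cpm in NOD against 10.6 to 15.2 cpm in the 12 others. Gm6645 had a gap of 0.73, with 2.11, 1.67 and 1.92 cpm against 0.396 to 0.827 cpm. Vcp-rs, the copy of Vcp, had a gap of 0.27. Ap1s2, a subunit of the adaptor complex of vesicles, had a gap of 0.24, with 16.0, 16.7 and 15.8 cpm against 10.9 to 14.3 cpm. Their causes were not tested.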

How the results depend on the processing

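The main counts were 2016 genes higher and 1427 lower than the mean of 4 strains, and 332 set apart higher and 208 lower. With a mean of at least 5 cpm they were 1341, 848, 213 and 128, where fewer genes (8981) were tested. At a threshold of 0.01 they were 1188, 913, 196 and 133. Genes set apart lower were 317 without 129S1/Svlmj, and without A/J those set apart were 537 higher and 377 lower, where 1 comparison fewer had to be passed. With 2 groups the counts against the mean were 478 and 298, and with strain means as the unit 5 and 12. In the fit to strain means 731 genes (4.62%) had an unadjusted p under 0.05, 462 higher and 269 lower. That share is no larger than this threshold would give with no difference. With single libraries left out, the counts ranged from 1240 to 2264 higher, 992 to 1570 lower, 230 to 362 set apart higher and 159 to 231 set apart lower. Under the other alternatives each count was within 1.5 times its main value. Without the 3 libraries with lens RNA, 290 of the 332 and 171 of the 208 genes were set apart again. Of 540 genes set apart, 329 held in all 15 fits with a library left out, and of 80 named ones 66 did. With strain means as the unit 65 of the 80 were lost, with Atf3, Mthfd2, Pde6a and Crym among them, and with 2 groups 5 were (Rprl3, Pcp2, Pde6c, Jam2 and Glo1). Median-ratio scaling ended the calls of Grik1, Kdr and Vldlr, quantile normalization those of Grik1, Kdr and Cat, the lens covariate those of Kdr, Hmox1, Cat, Psat1 and Gars, no filter those of Cnga3, Kdr, Hmox1 and Psat1, and a pseudocount of 0.1 those of Hbb-bt and C4a. Of the named genes 7 were lost without the 3 libraries with lens RNA (Grik1, Kdr, Hmox1, Cat, Psat1, Gars and Vldlr), 7 without the 2 with high Xist (Cnga3, Grik1, Kdr, Hmox1, Sod2, Cat and Gars), 6 without NZO/HlLtJ (Cnga3, Kdr, Hmox1, Cat, Psat1 and Gars), 2 without C57BL/6J (Cnga3 and Kdr), 1 each without 129S1/Svlmj (Kdr) and A/J (Cat), and 14 at a threshold of 0.01, the same that a single library left out ended. No named gene set apart was reversed in direction. No paired analysis was possible because the labels pair no mice between strains. The depth limits genes under 0.0505 cpm, the level of 3 reads in the shallowest of the 15 libraries.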

Other observations

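Nlrp1a, an inflammasome sensor of the innate immune system, is in the list of candidate genes of insulin-dependent diabetes loci. It was looked at after its values were seen and lay below the limit for testing. It was at 0.118, 0.0806 and 0.139 cpm in the NOD libraries and had no read in the 12 libraries of the other classical strains. The highest of these NOD values stands on few reads, since 3 reads correspond to 0.0394 to 0.0418 cpm in NOD.

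On chromosome X, the genes set apart lower in NOD were Gm38020, Ptchd1, Ftx and Gpr101. Ftx, a noncoding neighbour of Xist, was at 18.4, 18.1 and 17.9 cpm in NOD against 23 to 31.3 cpm. Ptchd1, a membrane protein of neurons, was at 1.02, 0.994 and 1.06 cpm against 1.64 to 2.87 cpm. NOD libraries correlated with each other, across genes, at 0.9884 to 0.9963 with those of the other strains at 0.9728 to 0.9856, and libraries of the same strain among the 4 others at 0.9899 to 0.9979, where genes are not independent replicates.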
